A study of Mus musculus with 6 samples.

Results

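AP-1 and immediate early genes were followed in C2C12 cells as a set of 10 listed symbols: *Fos*, *Fosb*, *Fosl1*, *Fosl2*, *Jun*, *Junb*, *Jund*, *Atf3*, *Egr1* and *Ier2*. The symbols were matched through GENCODE M21 to the Ensembl identifiers of the files, and all 10 were found among the 14548 genes with values. All 10 were also among the 10837 genes tested, which had at least 1 FPKM (fragments on a gene, scaled to its exon length and to the mapped fragments of the library) in at least 1 library. C2C12 is a mouse myoblast line that can fuse into myotubes. RNA-seq was compared between 3 libraries labelled WT and 3 labelled MSTN-KO, a knockout of myostatin, a secreted TGF-beta family protein that limits muscle growth. The edited cells are 1 line, C11, and since the strain field reads C11 for both groups, libraries were grouped by the genotype field. No treatment or time point is given in the labels, and nothing in them says that the replicates came from separate cultures, so p-values measure the spread between these libraries, which may be technical.

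Immediate early genes are transcribed within minutes of a growth factor, stress or fresh serum, without new protein synthesis, and most of their RNAs are short-lived. AP-1 is a dimer of basic leucine zipper proteins. JUN proteins can pair with each other or with FOS proteins, whereas FOS proteins need a JUN-type partner to bind DNA. In myoblasts, high AP-1 activity is known to oppose differentiation. *Fos* transcription is driven through serum response factor, its ETS-type cofactors, CREB and the MAP kinases.

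The promoters of *Fos* and *Fosb*, the members with the largest differences between the groups, are shown as the 250 bases before the transcription start, read 5′ to 3′ along the gene. *Fos* lies on chromosome 12 (plus strand) and *Fosb* on chromosome 7 (minus strand). The sequences came from RefSeq on GRCm38.p6, at chr12:85473640-85473889 and chr7:19310046-19310295. Capitals mark TGACG, the common part of sites for CREB and ATF proteins and the motif TATAAA that the basal machinery reads.
Fos: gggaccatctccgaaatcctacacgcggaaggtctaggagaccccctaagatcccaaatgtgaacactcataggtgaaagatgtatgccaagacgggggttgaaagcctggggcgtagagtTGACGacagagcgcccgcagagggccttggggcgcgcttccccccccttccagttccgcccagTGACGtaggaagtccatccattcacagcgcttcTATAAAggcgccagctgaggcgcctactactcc
Fosb: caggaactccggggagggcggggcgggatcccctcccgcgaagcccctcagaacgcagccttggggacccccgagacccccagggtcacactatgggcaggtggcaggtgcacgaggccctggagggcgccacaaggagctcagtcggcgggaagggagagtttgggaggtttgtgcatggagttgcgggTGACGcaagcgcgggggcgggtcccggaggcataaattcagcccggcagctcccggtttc
The *Fos* promoter held TGACG at positions -129 and -66 and TATAAA at -33, counted to the first base of the match with the transcription start as 0. The *Fosb* promoter held TGACG at -60. Of the 10 members, 7 had a promoter entry (250 bases before to 50 after the start), which left out *Fosl1*, *Egr1* and *Ier2*. Searched on both strands, TGACG was present in 4 of these 7 (*Fos*, *Fosb*, *Junb* and *Atf3*), against 20.8% of 32851 promoters of the same length. TATAAA was present in *Fos* and *Junb*, against 13.6% of all promoters. The AP-1 site TGANTCA (7.81% of all promoters), the full CREB site TGACGTCA (1.79%), which contains TGACG, the CArG box bound by serum response factor (1.63%) and the EGR site GCGTGGGCG (0.612%) matched in 0 of the 7. These are matches of letters in a fixed window. Sites further from the start, and those of *Fosl1*, *Egr1* and *Ier2*, were not searched, so 0 matches do not show that a gene lacks a site.

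*Mstn*, the targeted gene, did not exceed 0.0586 FPKM in any library, with 0.0211, 0 and 0.0399 FPKM for WT and 0.0269, 0.0586 and 0.0390 FPKM for MSTN-KO (two-sided exact permutation test, p = 0.3), so its RNA did not check the labels. All directions below rest on the genotype labels, and an exchange of the groups would turn each of them. FPKM summed to 723705 to 764524 per WT library and 856314 to 999579 per MSTN-KO library. The depth relative to WT replicate 1 was 0.86 to 1.11, with the absolute depth unknown. Spearman correlations across genes were 0.981 to 0.989 within groups and 0.955 to 0.970 between them. Among the cell type markers, all 8 tested genes of differentiated muscle were lower in MSTN-KO, with summed levels of 282.8 to 988.3 FPKM in WT and 40.2 to 68.5 FPKM in MSTN-KO, and WT replicate 3 was the lowest WT library. Myoblast markers summed to 1290 to 1770 FPKM in WT and 745 to 924 FPKM in MSTN-KO, with 1 called higher and 5 lower of 7. Fibroblast markers summed to 362 to 500 FPKM in WT and 574 to 639 FPKM in MSTN-KO, with 2 higher and 1 lower of 5. Immune markers summed to 0.818 to 2.50 FPKM over all libraries. For comparison with these counts, 8.78% of all tested genes were called higher and 8.96% lower. The part of these markers in the results for AP-1 genes was not tested, and in bulk RNA a change in the share of a cell type cannot be told apart from a change of RNA per cell.

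*Fos*, *Fosb* and *Ier2* were upregulated in the libraries labelled MSTN-KO, and 0 of the 10 genes were downregulated. The mean FPKM of *Fos* rose 8.03-fold and that of *Fosb* 5.48-fold from low WT levels, and *Ier2* rose 1.57-fold from a high one. *Jun* and *Junb* had higher MSTN-KO means, but missed the adjusted threshold, and *Jund*, *Fosl1*, *Fosl2*, *Atf3* and *Egr1* were not called either. Genes were compared by limma on log2(FPKM + 1), and a call is a Benjamini-Hochberg adjusted p under 0.05 over all 10837 tested genes. At an unadjusted limma p under 0.05, 5 members were higher (with *Jun* and *Junb*) and 0 lower, against 16.3% and 16.2% of all tested genes. Because 1 is added to each value, weakly expressed genes appear to change less on this scale than they did.

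The 3 called members of 10 can be read against 8.78% of all tested genes that were called higher and 8.96% that were called lower. Because the members and the other gene lists were chosen with earlier results known, such comparisons are descriptions and not tests. DEGs were genes with an unadjusted p under 0.05 whose log2 fold change exceeded 1 in size. By that cutoff, *Fos* and *Fosb* were upregulated DEGs, against 1.21% of all tested genes, and 0 members were downregulated, against 2.3%. The groups did not overlap for 5 members, all higher in MSTN-KO (*Fos*, *Fosb*, *Fosl1*, *Jun* and *Ier2*), where the share among all tested genes was 19.3% higher and 18.1% lower. The mean FPKM was higher in MSTN-KO for 9 of the 10 genes, including uncalled ones, and the share over all genes was not counted. With the libraries scaled to an equal FPKM sum, *Fosl1*, *Fosl2*, *Jund* and *Atf3* had negative log2 fold changes (-0.02, -0.22, -0.17 and -0.34).

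**Figure D1:**
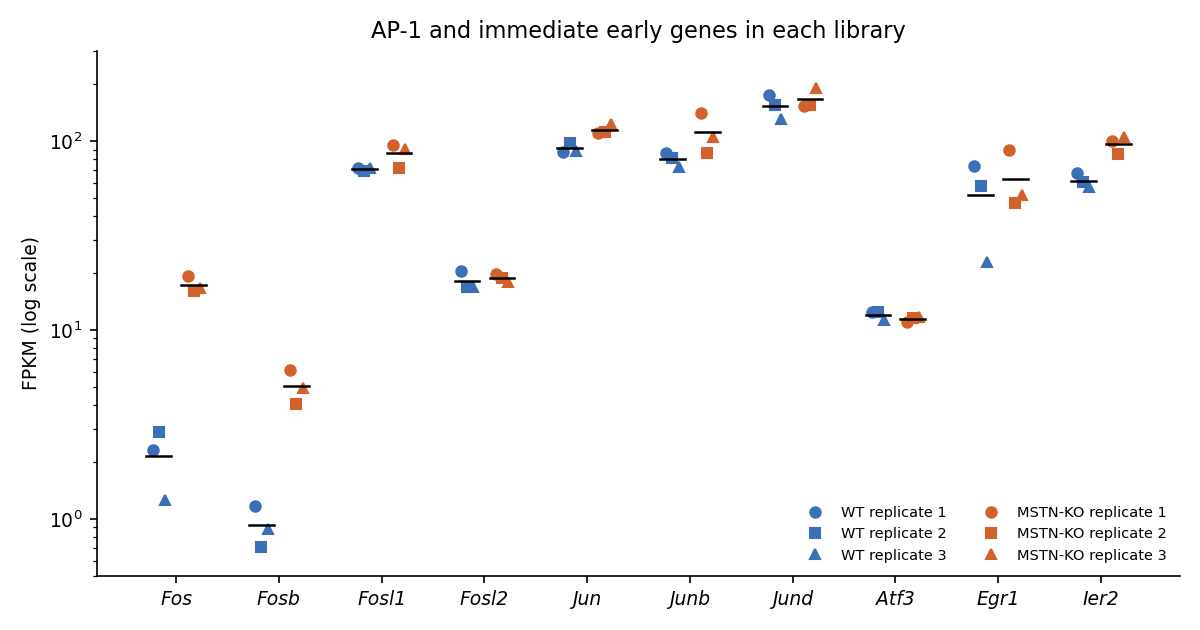
FPKM on a log scale for each of the 10 genes, with 1 point per library (blue WT, orange MSTN-KO; circle, square and triangle for replicates 1, 2 and 3) and a black bar at the group mean. *Fos* and *Fosb* show wide gaps between the groups, *Ier2* a narrow one, and *Egr1* spreads over 23.0 to 73.9 FPKM within WT.

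The FOS proteins are the partners that JUN proteins need for the more stable AP-1 dimers. *Fos* (ENSMUSG00000021250, chr12:85473890-85477273 on GRCm38) encodes c-FOS, the member that is induced fastest and has a strong activation domain. It was measured at 2.31, 2.89 and 1.26 FPKM in WT and at 19.3, 16.0 and 16.6 FPKM in MSTN-KO. Every MSTN-KO library lay far above every WT library. The means were 2.15 ± 0.828 and 17.3 ± 1.76 FPKM (SD, n = 3 each), a ratio of 8.03, and the log2 fold change was 2.57 (SE 0.19, 95% interval 2.15 to 2.98, limma adjusted p = 1.43e-06). The two-sided exact permutation test gave p = 0.1, the smallest that 3 libraries against 3 can give.

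*Fosb* (chr7:19302696-19310051), whose short splice form accumulates under repeated stimulation, was at 1.17, 0.708 and 0.885 FPKM in WT and 6.15, 4.05 and 4.94 FPKM in MSTN-KO. The groups were again apart, and FPKM per gene do not separate its splice forms. The ratio of the means was 5.48, with a log2 fold change of 1.65 (SE 0.18, limma adjusted p = 4.49e-05).

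*Fosl1* (FRA-1) and *Fosl2* (FRA-2), which lack the activation domain of c-FOS and peak later, were the more abundant FOS family RNAs. *Fosl1* was at 72.0, 69.0 and 72.0 FPKM in WT and 95.3, 72.2 and 91.1 FPKM in MSTN-KO. Its groups were separated only by the small gap between MSTN-KO replicate 2 and the highest WT library. The log2 fold change was 0.27 (95% interval -0.02 to 0.55, limma adjusted p = 0.180), and it turned to -0.02 with the libraries scaled to an equal FPKM sum. The gene overlaps *Ccdc85b* on the opposite strand, and whether the counting used strand is not given in the sources used here.

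*Fosl2* was at 20.4, 16.9 and 16.9 FPKM in WT and 19.7, 18.7 and 17.9 FPKM in MSTN-KO, with interleaved groups. Its log2 fold change was 0.06 (95% interval -0.23 to 0.34, limma adjusted p = 0.802), and its sign turned with scaling by the percentile 75 and with an equal sum.

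The shares of the 4 genes in FOS family RNA were set side by side. The 4 genes summed to 92.2 ± 3.35 FPKM in WT and 127.3 ± 15.0 FPKM in MSTN-KO (SD, n = 3 each), a gap of 35.1 FPKM between the means. *Fosl1* accounted for 15.2 FPKM of it, *Fos* for 15.1, *Fosb* for 4.13 and *Fosl2* for 0.685. *Fos* made up 2.40%, 3.23% and 1.38% of the family in WT and 13.7%, 14.4% and 12.7% in MSTN-KO. The share of *Fosb* went from a mean of 0.995% to 3.94%, while *Fosl1* went from 77.1% to 67.6% and *Fosl2* from 19.6% to 14.9%. *Fosl1* thus remained the most abundant family member in every library. These shares are descriptions with no test, and do not depend on how a library is scaled. The summed FPKM, the gap and its parts do depend on it. With an equal FPKM sum per library, the log2 fold change of *Fosl1* was -0.02.

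**Figure D2:**
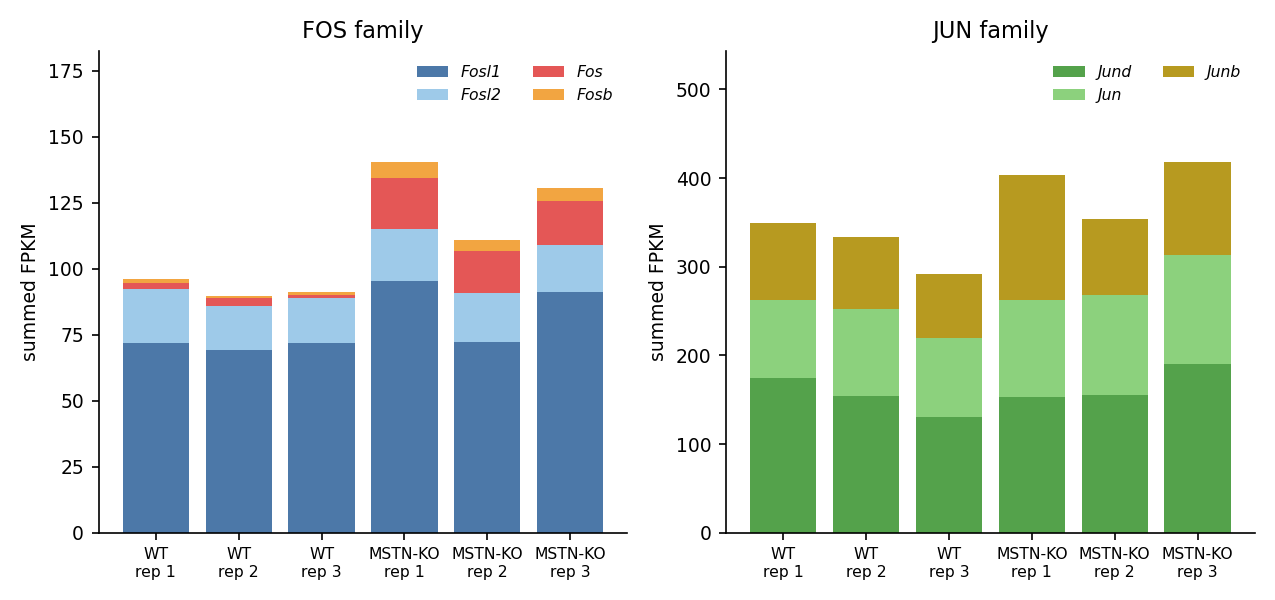
Summed FPKM of the FOS family (left) and the JUN family (right) in each library, stacked by gene, with vertical axes that start at 0. The red *Fos* segment is 1.38% to 3.23% of the FOS bar in WT and 12.7% to 14.4% in MSTN-KO, and *Junb* is widest in MSTN-KO replicate 1.

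The JUN family, which supplies the partner, was abundant in both groups. *Jun* (c-JUN, which also activates its own gene) was at 87.4, 97.6 and 88.5 FPKM in WT and 109.5, 111.9 and 122.7 FPKM in MSTN-KO. The groups did not overlap, with means of 91.2 ± 5.60 and 114.7 ± 7.01 FPKM (SD, n = 3 each). The log2 fold change of 0.33 (95% interval 0.07 to 0.58) missed the adjusted threshold (limma adjusted p = 0.0727). With the libraries scaled to an equal FPKM sum it was 0.04 (limma adjusted p = 0.74). The antisense gene *Junos* overlaps *Jun*.

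*Junb*, a weaker activator that can dampen c-JUN, was at 86.7, 81.2 and 73.2 FPKM in WT and 141.3, 86.2 and 105.1 FPKM in MSTN-KO. MSTN-KO replicate 2 fell within the WT range, and MSTN-KO replicate 1 stood highest. The log2 fold change was 0.43 (SE 0.16, limma adjusted p = 0.0858). Leaving out MSTN-KO replicate 2 raised it to 0.60 with a call (limma adjusted p = 0.0144). Leaving out MSTN-KO replicate 1 lowered it to 0.25 (limma adjusted p = 0.359). With an equal FPKM sum per library it was 0.15 (limma adjusted p = 0.51). *Junb* overlaps *Prdx2* on the opposite strand.

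*Jund*, which is expressed in resting cells and responds little to serum, was the most abundant member in both groups, at 174.7, 154.5 and 130.7 FPKM in WT and 152.7, 155.7 and 190.3 FPKM in MSTN-KO. The groups were interleaved (log2 fold change 0.12, 95% interval -0.19 to 0.43, limma adjusted p = 0.594), and the sign turned with quantile normalization and with an equal sum. The JUN family summed to 324.8 ± 29.2 FPKM in WT and 391.9 ± 33.7 FPKM in MSTN-KO (SD, n = 3 each). These sums depend on how a library is scaled. With an equal FPKM sum the log2 fold changes were 0.04 for *Jun*, 0.15 for *Junb* and -0.17 for *Jund*. Mean shares went from 28.2% to 29.4% for *Jun*, from 24.8% to 28.2% for *Junb* and from 47.0% to 42.5% for *Jund*, and *Junb* stood at 35.0% in MSTN-KO replicate 1 against 24.4% to 25.1% in the other libraries. The ratio of the FOS to the JUN sum was 0.285 ± 0.0230 in WT and 0.324 ± 0.0203 in MSTN-KO, so JUN family RNA exceeded FOS family RNA in every library.

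*Ier2* (ENSMUSG00000053560, chr8:84661331-84662852), which encodes a short nuclear protein and is induced by growth factors, was at 67.3, 60.7 and 57.0 FPKM in WT and 99.6, 85.0 and 105.2 FPKM in MSTN-KO. All MSTN-KO libraries were above all WT libraries. The means were 61.7 ± 5.21 and 96.6 ± 10.5 FPKM (SD, n = 3 each) and the log2 fold change was 0.64 (SE 0.13, 95% interval 0.36 to 0.92, limma adjusted p = 0.00487). It was below the fold needed for a DEG.

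*Egr1*, a zinc finger factor induced by the same serum response pathway as *Fos*, was at 73.9, 57.8 and 23.0 FPKM in WT and 89.8, 46.9 and 51.7 FPKM in MSTN-KO. Relative to its mean it had the widest spread of the 10 genes within a group, from WT replicate 3 at the bottom to WT replicate 1 at the top. The log2 fold change was 0.37 with a 95% interval of -0.36 to 1.11 (limma adjusted p = 0.472), and without WT replicate 3 it was -0.12. WT replicate 3 was also low in *Myog*, the myogenic factor of differentiating cells, at 47.3 FPKM against 175 and 148 FPKM in the other WT libraries, and a relation between them was not tested. The ratio of *Fos* to *Egr1* had means of 0.0453 in WT and 0.292 in MSTN-KO.

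*Atf3*, a stress-induced factor of the ATF family that can pair with JUN proteins, was at 12.4, 12.5 and 11.2 FPKM in WT and 11.0, 11.5 and 11.7 FPKM in MSTN-KO. It was the one member with a lower MSTN-KO mean, and its groups overlapped (log2 fold change -0.07, 95% interval -0.35 to 0.21, limma adjusted p = 0.743).

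**Figure D3:**
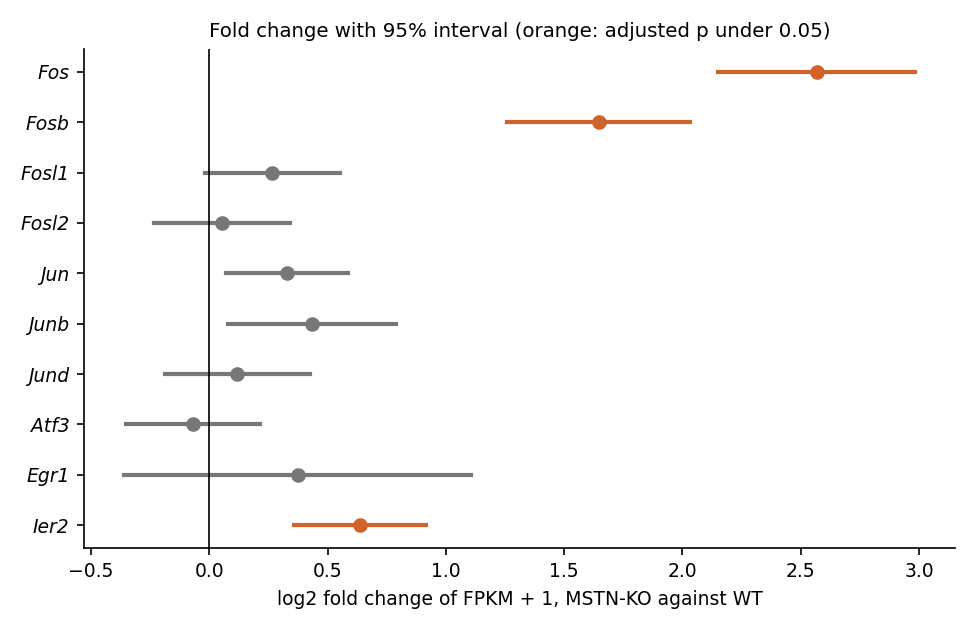
Log2 fold change of FPKM + 1 between MSTN-KO and WT for the 10 genes, as points with 95% intervals from limma, where orange marks an adjusted p under 0.05. The intervals of *Fos* (2.15 to 2.98) and *Fosb* (1.26 to 2.03) lie above those of the other 8 genes.

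Ordered by mean FPKM, which is per length, the WT libraries had *Jund*, *Jun*, *Junb*, *Fosl1*, *Ier2*, *Egr1*, *Fosl2*, *Atf3*, *Fos* and *Fosb*, from high to low. Neighbours in this order did not overlap in range except *Ier2* and *Egr1*. In MSTN-KO, *Jund* was again first and *Fosb* last. *Jun*, *Junb*, *Ier2*, *Fosl1* and *Egr1* followed *Jund*, each overlapping the next in range. *Fos* stood beside *Fosl2*, with overlapping ranges, and above *Atf3*, whereas in WT it was below both.

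The 10 genes also varied between libraries of the same group. MSTN-KO replicate 1 was the highest of its group for 6 of the 10 genes and for 25 of 45 other immediate early genes tested (55.6%), against 26.3% of all tested genes. MSTN-KO replicate 2 was the lowest for 6 of the 10 and for 24 of the 45 (53.3%), against 39.2% of all. WT replicate 3 was the lowest for 7 of the 10 and for 27 of the 45 (60.0%), against 38.4% of all. MSTN-KO replicate 1 also had the lowest relative depth, 0.86, and the part of depth was not tested.

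The genes whose profile over the 6 libraries lay nearest to *Fos* were *Tap2* (distance 0.43 between log2(FPKM + 1) values centred per gene), *Ccn5* (0.45) and *Sfrp2* (0.48). *Tap2*, a peptide transporter for antigen presentation, had means of 2.05 and 16.3 FPKM in WT and MSTN-KO. *Ccn5*, a matricellular protein, went from 1.48 to 15.6 FPKM, and *Sfrp2*, a secreted modulator of WNT signalling, from 1.35 to 12.4 FPKM. Nearest to *Fosb* were *C1rl* (0.23), *Olfml3* (0.28) and the PDGF receptor gene *Pdgfrb* (0.32), which rose from 7.69 to 23.0 FPKM. Likeness here is mostly the shared gap between the groups.

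Of 49 other immediate early genes listed, also with earlier results of these data known, 48 were in the files and 45 were tested. In MSTN-KO, 11 were called higher (24.4%, against 8.78% of all tested genes) and 5 lower (11.1%, against 8.96%, a share near that of all genes). The median log2 fold change was 0.15, against -0.00078 for all tested genes. Without MSTN-KO replicate 1, 7 were higher, and without WT replicate 2 or WT replicate 3, 3 were lower. With an equal FPKM sum per library, 5 were higher and 8 lower.

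Among those that rose, *Ccn1* (CYR61), a matricellular protein induced by serum, was at 169.0, 142.3 and 188.3 FPKM in WT and 339.2, 276.7 and 325.0 FPKM in MSTN-KO (log2 fold change 0.91, limma adjusted p = 0.000741). *Sgk1*, a kinase induced by serum and glucocorticoids, went from a mean of 70.2 to 132.6 FPKM (log2 fold change 0.90). The others higher were *Ier5l*, *Zfp36*, *Zfp36l1*, *Dusp1*, *Dusp2*, *Arc*, *Cebpb*, *Pim1* and *Socs3*, given here to account for the count. They include *Zfp36* and *Zfp36l1*, which speed the decay of AU-rich RNAs, and the MAP kinase phosphatases *Dusp1* and *Dusp2*. The groups overlapped for *Cebpb*. *Arc* was weakly expressed, with means of 2.27 FPKM in WT and 4.28 FPKM in MSTN-KO (limma adjusted p = 0.0483).

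Among those that fell, *Btg2*, an antiproliferative gene, was at 26.6, 27.0 and 18.5 FPKM in WT and 9.80, 11.7 and 12.2 FPKM in MSTN-KO (log2 fold change -1.02). *Klf6*, a zinc finger factor, went from 38.7 to 22.3 FPKM (log2 fold change -0.79), and *Nr4a2*, *Klf10* and *Hbegf* were also lower. The uncalled genes with the highest levels were *Rhob*, a small GTPase, with means of 324.3 and 338.6 FPKM, and *Zfp36l2*, with 105.0 and 136.1 FPKM (limma adjusted p = 0.0552).

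**Figure D4:**
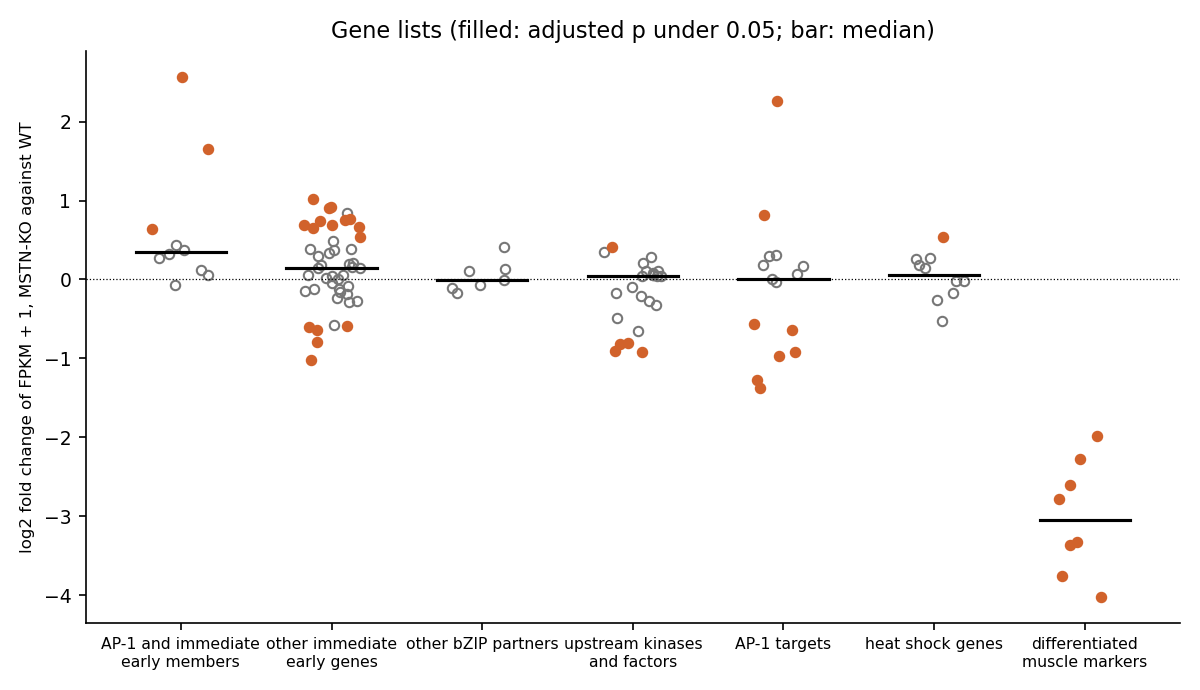
Log2 fold change of FPKM + 1 for every tested gene of 7 lists, with 1 circle per gene, filled where the adjusted p was under 0.05, and a bar at the median. The 10 AP-1 and immediate early members have a median of 0.35, the other immediate early genes 0.15 with calls on both sides, and the differentiated muscle markers -3.05.

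Other leucine zipper genes that can pair with AP-1 proteins gave 0 calls in either direction by limma among 7 tested. Of all tested genes, 8.78% were called higher and 8.96% lower. At an unadjusted p under 0.05 the list also gave 0, against 16.3% higher and 16.2% lower among all tested genes. *Jdp2*, a repressor that pairs with JUN proteins, had means of 71.7 and 71.3 FPKM, and the small MAF gene *Mafg* had 43.8 and 46.9 FPKM. Neither differed by more than its spread between replicates.

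Of 23 tested kinases and factors upstream of these genes, 1 was called higher (*Map2k2*, 4.35% of the list) and 4 lower (17.4%). Among all tested genes, 8.78% were called higher and 8.96% lower. *Map2k2* was not called with WT replicate 2, WT replicate 3, MSTN-KO replicate 1 or MSTN-KO replicate 3 left out. The call was also lost with an equal FPKM sum per library and without the trend in the variance prior. *Mapk3* (ERK1) was not called, with means of 83.2 and 89.7 FPKM. *Crem*, a CREB family gene with repressor forms, *Mapk8* (JNK1) and *Rps6ka1* (RSK1) had log2 fold changes of -0.91, -0.82 and -0.80. *Mapk8* was at 8.17, 7.61 and 9.18 FPKM in WT and 5.80, 5.99 and 2.08 FPKM in MSTN-KO (limma adjusted p = 0.0440). *Rps6ka1* was weakly expressed, with means of 1.60 FPKM in WT and 0.493 FPKM in MSTN-KO. *Rps6ka4* (MSK2) was not called, at 51.4 and 65.7 FPKM.

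Among 15 tested genes that AP-1 is known to regulate, 2 were higher and 6 lower (13.3% and 40.0%). The shares over all tested genes were 8.78% and 8.96%. The list had a median log2 fold change of 0.01. *Ccl2*, a chemokine gene, rose from 12.6 ± 1.71 to 66.1 ± 20.3 FPKM (SD, n = 3 each, log2 fold change 2.25). *Plau* (urokinase) fell by 1.27 on the log2 scale, the EGF receptor ligand *Areg* fell by 1.38 and the cytokine *Lif* fell by 0.97. *Hbegf*, which stands in this list too, was among the 6. *Lgals1* and *Spp1*, the most abundant of the list, were not called, with log2 fold changes of 0.30 and 0.01.

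Heat shock genes, which respond to handling of cells, were called higher for 1 of 10 tested and lower for 0 by limma. The shares over all tested genes were 8.78% and 8.96%. At an unadjusted p under 0.05, 1 was higher and 1 lower, against 16.3% and 16.2% of all tested genes. The called gene was *Hspa1a*, with means of 25.8 and 37.9 FPKM (log2 fold change 0.54, limma adjusted p = 0.0186). It was not called with WT replicate 1, WT replicate 2, MSTN-KO replicate 1 or MSTN-KO replicate 3 left out, nor with an equal FPKM sum per library. *Hspb1* and *Hspa8* had log2 fold changes of -0.02 and 0.28 and were not called. The part of cell handling or serum in the differences of *Fos* and *Fosb* was not tested.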

How the data were processed

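Gene expression of C2C12 cells was compared between 3 libraries labelled WT and 3 labelled MSTN-KO in the genotype field. The authors extracted RNA, sequenced it on an Illumina system and deposited FPKM values per gene, 1 library per file. FPKM divides fragments by gene length and by the fragments of the library, so genes that take much of a library lower the values of the others. The submitters' processing notes name Bowtie 0.12.2 and mm8 without a role. The counter, annotation and use of strand are not given in the sources used here. The files hold no coordinates, and symbols and positions came from GENCODE M21 on GRCm38 for 14445 of the 14548 genes.

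The log2(FPKM + 1) values of every gene that reached 1 FPKM in 1 or more libraries entered a limma 3.58.1 fit (R 4.3.3) in which the group was the only term and the eBayes variance prior followed a trend. Calls used the Benjamini-Hochberg adjusted p at 0.05. DEGs used the cutoff of the study's methods, an unadjusted p under 0.05 with a log2 fold change over 1 in size. Exact permutation tests covered the 20 assignments of the 6 libraries. Depth relative to WT replicate 1 came from the steps between values under 0.1 FPKM. The fit was tested on simulated data. Other steps used Python 3.11.15, pandas 2.3.3, scipy 1.17.1 and matplotlib 3.10.9.

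Named were all 10 members, *Mstn*, up to 4 genes of each other list with the largest fold change among those called without overlap, up to 2 uncalled genes of it with the highest mean, and for *Fos* and the other member with the largest fold change the 3 nearest profiles. Further genes, named to account for a count, were chosen after their values were seen. The values of 1 gene that the rule names are not reported here. The members and lists were chosen with earlier results of these data known. Alternatives changed the pseudocount (0.1), the filter (none, or on the mean), the trend (none) or the scaling (quantiles, the percentile 75, or an equal sum of 1000000). Others corrected for gene length and GC content (mgcv 1.9.3), blocked on the replicate number, did both, or left out each library in turn.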

Additional observations from a re-analysis of the deposited data

How the results depend on the processing

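*Fos*, *Fosb* and *Ier2* were called higher under all 16 alternatives, with log2 fold changes of 2.34 to 3.02, 1.52 to 2.34 and 0.35 to 0.73, and 0 members were called lower under any of them by limma. Their highest adjusted p-values were 0.000755, 0.00187 and 0.0330. *Junb* was the one member that gained a call, with the replicate number as a block (log2 fold change 0.43, limma adjusted p = 0.0460) and without MSTN-KO replicate 2, which gave 4 called members each. With the block, 939 genes were called higher and 1001 lower, against 952 and 971 without it, and among the other immediate early genes 12 were higher and 6 lower. Over all tested genes, the deviations of same-numbered libraries from their group means had correlations of -0.02, -0.13 and -0.14. With 3 libraries per group, these correlations cannot decide whether the numbers pair the samples. Scaling every library to a sum of 1000000 moved the median of all genes by -0.26. It gave 350 genes higher and 2367 lower (12.9% of calls higher, against 49.5%), and 5 and 8 among the other immediate early genes. It also turned *Fosl1* (-0.0168), *Fosl2* (-0.218) and *Jund* (-0.166), which relative to that median were 0.24, 0.04 and 0.09. Scaling by the percentile 75 gave 757 genes higher and 1192 lower (38.8% higher) and turned *Fosl2* (-0.0209), and quantile normalization turned *Jund* (-0.0229). Without a filter, 7 other immediate early genes were higher. Leaving out 1 library at a time gave 419 to 1175 genes higher and 611 to 1233 lower, 7 to 13 other immediate early genes higher and 3 to 6 lower, and *Egr1* at -0.12 to 0.71. The lowest counts over all genes came without WT replicate 2. The 1 myoblast marker called higher was lost under 8 of the 16 alternatives and the 1 fibroblast marker called lower under 9. The cause of these moves was not tested. FPKM values without counts allow no counting error per gene, which limits *Fosb* and *Fos* in WT most.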
